A study of Mus musculus with 6 samples.

Results

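Retinal ganglion cells (RGCs) are the output neurons of the retina. Here 10 genes known as RGC markers or as genes of the RGC axon were followed in the postnatal day 7 (P7) retina, namely *Pou4f1*, *Pou4f2*, *Pou4f3*, *Rbpms*, *Sncg*, *Thy1*, *Nefl*, *Nefm*, *Nefh*, and *Tubb3*. They were chosen by symbol, and 9 of the 10 had a row among the 21744 genes of the expression table. *Tubb3*, which encodes a neuronal beta-tubulin, was not analysed here. The study deleted *Lhx4*, a LIM-homeodomain gene of developing bipolar cells (BCs), in the retina. It compared 3 mice labelled *Lhx4*-null with 3 labelled control, 1 library from the retinas of each mouse. The sample titles of the former read Lhx4 Mutant, and the study's term, null, is used here. All 6 mice were 7 days old on a mixed C57BL/6J and 129S6 background. The study describes its null mice as *Lhx4* tdT/loxP; Six3-Cre, with a tdTomato knock-in allele, a floxed allele, and Cre driven in the developing retina by *Six3*. For the libraries, the labels give no alleles of the controls. The retina was sequenced whole, without the pigment epithelium, so fewer RGCs and less RNA per RGC cannot be told apart.

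RGCs collect signals from BCs and amacrine cells (ACs) and carry them through the optic nerve to the brain. They are born before birth, well ahead of BCs, and their axons are cut when the retina is dissected. The POU-homeodomain factors POU4F1, POU4F2, and POU4F3 act after the fate choice, POU4F2 in RGC differentiation and survival and the others in RGC subtypes and dendrites. RBPMS is an RNA-binding protein present in nearly all RGCs, gamma-synuclein (*Sncg*) is a small protein of RGC bodies and axons, and THY1 is a surface glycoprotein. The neurofilament light, medium, and heavy chains (*Nefl*, *Nefm*, and *Nefh*) assemble into the filaments that set axon calibre. Several of these genes are not restricted to RGCs: horizontal cells hold neurofilaments, and *Thy1* is also read in vessels and fibroblasts.

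Expression was deposited as FPKM, a fragment number scaled to transcript length and library depth. It is a share of each library, so differences in other genes can also shift a value between libraries. Relative library depth was read from the value of a single fragment in 2154 weakly expressed genes and was 76.9% to 100% of the deepest in the controls and 46.7% to 65.9% in the others. Depth therefore cannot be told apart from genotype. The targeted gene, *Lhx4*, had 20.9, 23.8, and 19.1 FPKM in the controls, given here and throughout in the order of replicates 1, 2, and 3, and 31.2, 30.3, and 29.0 FPKM in the rest. Its value over the whole gene was thus not lower in the second group, and such a value cannot show which exons were read. The second group is therefore called the libraries labelled *Lhx4* null. Retinal identity was plain in every library, with the summed FPKM of 10 rod genes at 2797 to 4050.

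None of the 9 RGC genes passed the test between the groups. The test was limma on log2(FPKM + 0.1) over 15200 genes whose mean reached 0.1 FPKM, with an adjusted p under 0.05 by the method of Benjamini and Hochberg. Of all genes tested, 34 passed (0.224%), 0.0855% with higher and 0.138% with lower values in the second group. At an unadjusted p under 0.05 in limma, 1 of the 9 genes passed, *Pou4f1*, against 8.15% of all genes tested (4.6% higher and 3.55% lower). The differences were small, from -0.06 to 0.27 on the log2 scale, and 5 of 9 genes were higher and 4 lower in the libraries labelled *Lhx4* null. The median difference of the 9 was 0.03, and that of all genes tested was 0.01. In 2 of the 9 genes, *Pou4f1* and *Pou4f2*, all 3 libraries labelled *Lhx4* null lay above all 3 control libraries, and no gene showed the reverse. Among all genes tested, 14.2% were apart in either direction, 8.1% with the higher and 6.13% with the lower values in the libraries labelled *Lhx4* null. With 3 libraries against 3, the smallest two-sided p of an exact permutation test on a single gene is 0.1.

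**Figure D1:**
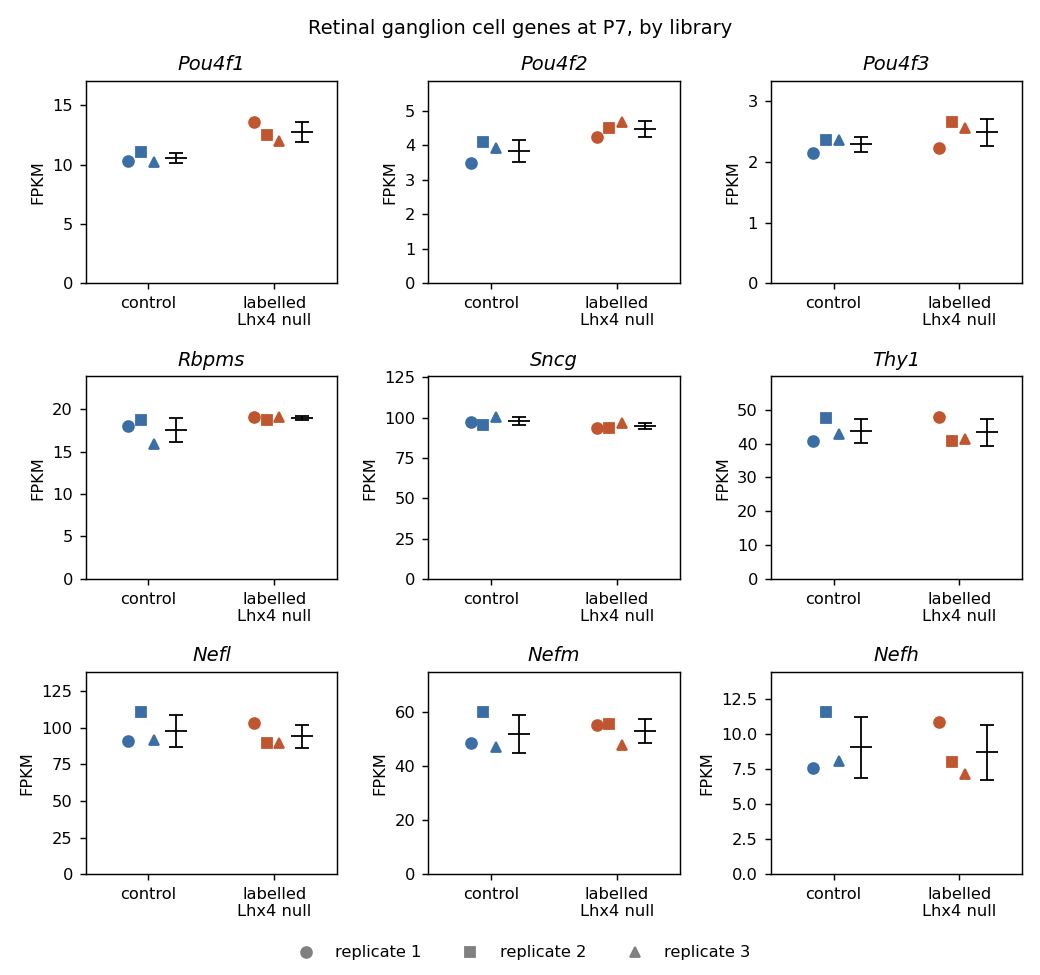
FPKM of the 9 RGC genes in each library, with 1 panel per gene, the y axis in FPKM from 0, and the marker shape giving the replicate number; the bar is the mean ± SD of 3 libraries. Only *Pou4f1* and *Pou4f2* have groups that do not overlap.

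*Pou4f1* and *Pou4f2* were the members with the largest differences. *Pou4f1* (ENSMUSG00000048349) lies on the minus strand of chromosome 14, from 104461676 to 104467999 in GRCm38, with 4 merged exon blocks in GENCODE vM21. *Pou4f2* (ENSMUSG00000031688) lies on the minus strand of chromosome 8, from 78433010 to 78436645, with 2 exon blocks. No exon base of either overlaps another annotated gene. The 250 bases upstream of their RefSeq starts (GRCm38.p6) are shown because these 2 genes were the ones apart between the groups. Capitals mark GGGCGG, the GC box, on either strand, with overlapping matches joined.

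*Pou4f1*, chr14:104468000-104468249, minus strand: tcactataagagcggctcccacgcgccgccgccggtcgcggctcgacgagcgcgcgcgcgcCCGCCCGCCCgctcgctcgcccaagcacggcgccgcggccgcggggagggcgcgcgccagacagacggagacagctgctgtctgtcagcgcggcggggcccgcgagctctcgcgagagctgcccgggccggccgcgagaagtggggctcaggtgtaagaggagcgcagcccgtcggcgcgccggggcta
*Pou4f2*, chr8:78436648-78436897, minus strand: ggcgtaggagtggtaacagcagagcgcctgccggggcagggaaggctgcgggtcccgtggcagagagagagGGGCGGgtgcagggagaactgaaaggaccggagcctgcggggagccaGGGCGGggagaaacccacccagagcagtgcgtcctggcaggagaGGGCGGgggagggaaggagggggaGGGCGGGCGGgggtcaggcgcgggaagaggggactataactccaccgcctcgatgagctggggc

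Both sequences were rich in G and C, at 78.0% for *Pou4f1* and 70.8% for *Pou4f2*, against a median of 52.4% over 32851 promoters of the same length. They held 47 and 17 CpG dinucleotides, against a median of 6. GGGCGG occurred 2 times in the *Pou4f1* sequence and 5 times in that of *Pou4f2*, and 32.7% of all promoters held it. TAATTA, a core bound by many homeodomain proteins, occurred 0 times in either, and 4.84% of all promoters held it on either strand. The E-box CANNTG occurred 2 times in the *Pou4f1* sequence and 0 times in that of *Pou4f2*, and 66.2% of all promoters held it. These matches are descriptions of the letters and not binding sites.

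*Pou4f1* was at 10.3, 11.0, and 10.2 FPKM in the controls, against 13.6, 12.5, and 12.03 FPKM in those labelled *Lhx4* null. Every library of the second group was thus above every control library. The group means were 10.5 ± 0.43 and 12.7 ± 0.82 FPKM (SD, n = 3 each), and limma put the difference at 0.27 on the log2 scale, with a standard error of 0.083 and an adjusted p of 0.47. Its unadjusted p from limma was 0.011. The 95% interval of the fold, 1.06 to 1.38, lay above 1, but 4.6% of all genes tested were higher at an unadjusted p under 0.05.

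The study counted RGCs by POU4F2 protein in adult retinas and reports a normal number without *Lhx4*. That count is of another age and measure than RNA at P7. Here *Pou4f2* was at 3.47, 4.10, and 3.91 FPKM in the controls. It was at 4.24, 4.50, and 4.69 FPKM in those labelled *Lhx4* null, again above every control library. In limma this gave 0.22 on the log2 scale, with a standard error of 0.11 and an adjusted p of 0.65, with a fold interval of 0.98 to 1.39.

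*Pou4f3* (ENSMUSG00000024497, chromosome 18, plus strand, 42394539 to 42397249) was the lowest member. Its values were 2.15, 2.37, and 2.36 FPKM in the controls, against 2.23, 2.67, and 2.56 FPKM in those labelled *Lhx4* null. The groups overlapped, since *Lhx4* null replicate 1 lay below control replicates 2 and 3. The limma estimate was 0.11 on the log2 scale, with a standard error of 0.13 and an adjusted p of 0.85. All 3 *Pou4f* genes thus had positive fold changes, and none passed over all genes tested.

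*Rbpms* (ENSMUSG00000031586, chromosome 8, minus strand, 33782643 to 33929863) is the broadest RGC marker of the set. It was at 18.1, 18.7, and 15.97 FPKM in the controls, against 19.1, 18.7, and 19.1 FPKM in those labelled *Lhx4* null. Control replicate 3 stood below the other 5 libraries, which spanned 18.1 to 19.1 FPKM. In limma this gave 0.11 on the log2 scale, with a standard error of 0.080 and an adjusted p of 0.74, and the 95% interval of the difference ran from -4.93% to 22.7%.

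*Sncg* (ENSMUSG00000023064, chromosome 14, minus strand, 34370274 to 34374789) was the steadiest member. Its values of 97.2, 95.4, and 100.4 FPKM in the controls and, in the second group, of 93.4, 93.9, and 96.9 FPKM differed by 1.07-fold between the highest and the lowest library. Over the 15053 tested genes above 0 in every library, the median of this ratio was 1.33. The groups overlapped. The limma estimate was -0.04 on the log2 scale, with a standard error of 0.062 and an adjusted p of 0.89, with a fold interval of 0.88 to 1.07.

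*Thy1* (ENSMUSG00000032011, chromosome 9, plus strand, 44043384 to 44048579) was at 40.6, 47.7, and 42.8 FPKM in the controls, against 47.9, 40.9, and 41.2 FPKM in those labelled *Lhx4* null. Its 2 highest libraries, control replicate 2 and *Lhx4* null replicate 1, belonged to different groups. In limma this gave -0.01 on the log2 scale, with a standard error of 0.091 and an adjusted p of 0.98, with a fold interval of 0.86 to 1.15.

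**Figure D2:**
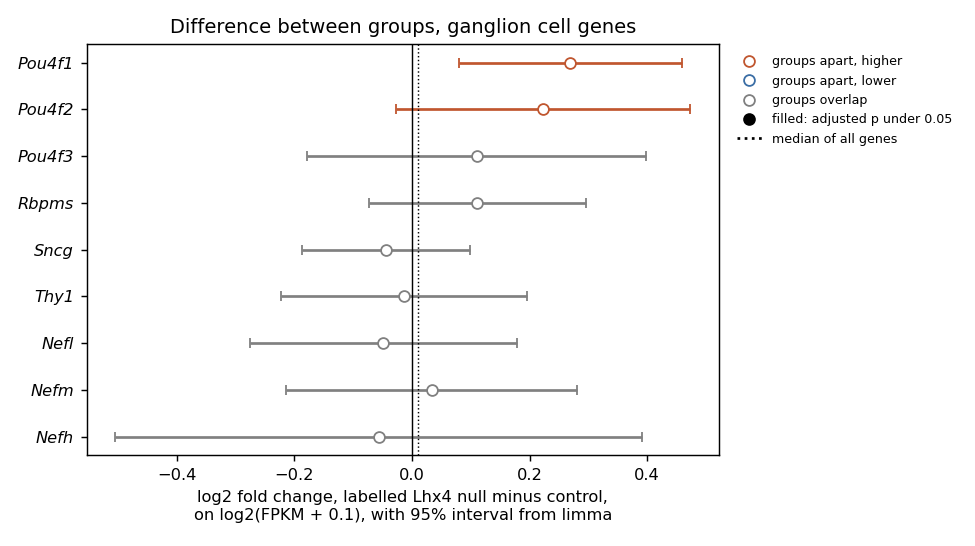
Log2 fold change of each RGC gene, libraries labelled *Lhx4* null minus control, on log2(FPKM + 0.1), with its 95% interval from limma; the dotted line is the median of all genes tested, 0.01. Orange marks the 2 genes whose groups do not overlap, and no point is filled because no adjusted p was under 0.05.

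The neurofilament genes differed more among libraries of a group than between the groups. *Nefl* (ENSMUSG00000022055, chromosome 14, plus strand, 68083863 to 68089095) was at 91.2, 110.6, and 91.6 FPKM in the controls, against 103.4, 89.9, and 89.8 FPKM in those labelled *Lhx4* null. Control replicate 2 and *Lhx4* null replicate 1 again stood above the other 4 libraries, which lay between 89.8 and 91.6 FPKM. The limma estimate was -0.05 on the log2 scale, with a standard error of 0.099 and an adjusted p of 0.93, with a fold interval of 0.83 to 1.13.

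*Nefm* (ENSMUSG00000022054, chromosome 14, minus strand, 68082590 to 68124846) was at 48.6, 60.0, and 47.1 FPKM in the controls, against 55.4, 55.5, and 47.8 FPKM in those labelled *Lhx4* null. Its highest and lowest libraries were both controls. In limma this gave 0.03 on the log2 scale, with a standard error of 0.11 and an adjusted p of 0.96. In GENCODE vM21 the span of *Nefl* lies within that of *Nefm* on the opposite strand. The 2 genes share 1108 exon bases, 32.8% of those of *Nefl* and 19.2% of those of *Nefm*. Whether the authors counted by strand is not given in the sources used here, so reads of the shared bases could have been assigned to either gene.

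*Nefh* (ENSMUSG00000020396, chromosome 11, minus strand, 4938754 to 4948064) was the most variable member, at 7.55, 11.5, and 8.04 FPKM in the controls, against 10.8, 8.01, and 7.15 FPKM in those labelled *Lhx4* null. It differed by 1.61-fold between control replicate 2 and *Lhx4* null replicate 3. The limma estimate was -0.06 on the log2 scale, with a standard error of 0.20 and an adjusted p of 0.96. Its fold interval, 0.70 to 1.31, was the widest of the 9 and ran from -29.5% to 31.1%. Without control replicate 2, the differences of *Nefl* (0.043), *Nefh* (0.13), and *Thy1* (0.051) were positive on the log2 scale.

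By mean level over the 6 libraries, the order was *Sncg* (96.2 FPKM), *Nefl* (96.1), *Nefm* (52.4), *Thy1* (43.5), *Rbpms* (18.3), *Pou4f1* (11.6), *Nefh* (8.85), *Pou4f2* (4.15), and *Pou4f3* (2.39). *Sncg* and *Nefl* were each above 96.3% of the genes tested, and *Pou4f3* was above 27.4%. Neighbours with overlapping ranges over the libraries were *Sncg* and *Nefl*, *Nefm* and *Thy1*, and *Pou4f1* and *Nefh*. The other neighbours in this order did not overlap in any library.

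Ratios within a library do not depend on how libraries are scaled, and 5 of them were computed after the values were seen. *Nefm* was at 0.530 ± 0.014 of *Nefl* in the controls and 0.562 ± 0.048 in the libraries labelled *Lhx4* null (SD, n = 3; exact permutation test, two-sided p = 0.5, adjusted p = 0.83 over 5 ratios). *Nefh* was at 0.0916 ± 0.011 and 0.0912 ± 0.013 of *Nefl* (exact p = 1, adjusted p = 1). *Pou4f1* was at 0.601 ± 0.036 of *Rbpms* in the controls and 0.672 ± 0.041 in the others, and the groups overlapped (exact p = 0.2, adjusted p = 0.5). The ratio of *Nefl* to *Rbpms* was 5.57 ± 0.45 and 4.98 ± 0.38 (exact p = 0.2, adjusted p = 0.5). *Pou4f1* was at 2.76 ± 0.19 and 2.86 ± 0.33 times the level of *Pou4f2* (exact p = 0.7, adjusted p = 0.88). None of the 5 ratios separated the groups. With 3 libraries against 3 the smallest exact p is 0.1, so this test could not have reached 0.05 for any ratio.

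The members did not vary as a single block over the libraries. The highest library was control replicate 2 for *Nefl*, *Nefm*, and *Nefh*, and it was *Lhx4* null replicate 1 for *Thy1*, *Rbpms*, and *Pou4f1*. These were the 2 highest libraries for 3 of the 9 genes, *Thy1*, *Nefl*, and *Nefh*, and for 12.7% of all genes tested. The same 2 libraries held the highest sums of 10 rod genes, at 4050 and 3752 FPKM against 2797 to 3523 FPKM in the other 4. They also had the highest values of *Spp1*, a gene of large RGCs that was singled out after its values were seen, at 7.65 and 7.08 FPKM against 0.442 to 1.79 FPKM. The part of these in the neurofilament values was not tested. Without both libraries, 0 of the 9 genes passed and 5 of 9 were higher in the libraries labelled *Lhx4* null (limma). In that fit the log2 fold changes of *Nefl* and *Nefh* were -0.03 and -0.04.

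**Figure D3:**
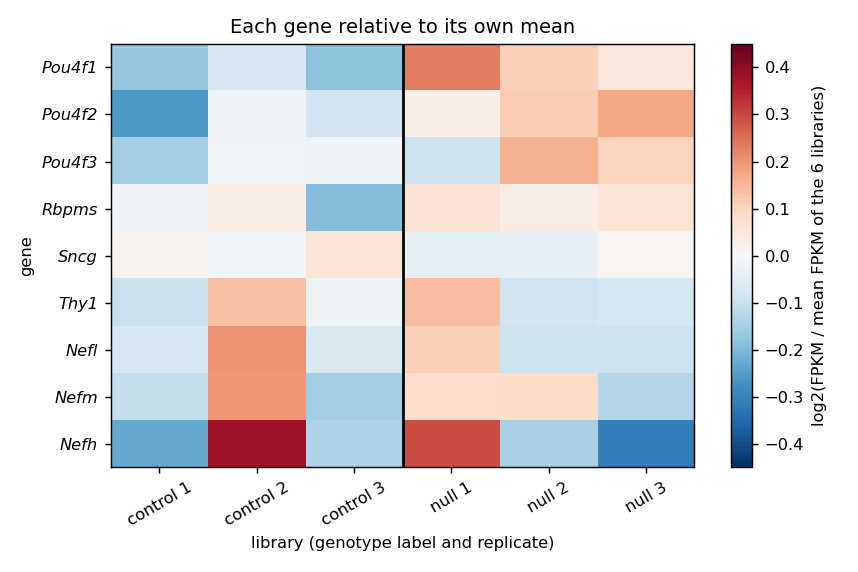
Heat map of the 9 RGC genes (rows) in the 6 libraries (columns, control to the left of the line), coloured by log2 of FPKM over the mean FPKM of the gene. *Nefh* reaches 0.38 in control replicate 2 and 0.29 in *Lhx4* null replicate 1, while *Sncg* stays between -0.04 and 0.06.

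Other transcription factors of RGCs were compared in the same fit. Of 18 such genes, all tested, 1 passed, *Isl1*, which was lower in the libraries labelled *Lhx4* null. *Isl1*, a LIM-homeodomain factor of RGCs that is also strongly expressed in ON-BCs and some ACs, was at 119.7, 130.6, and 106.2 FPKM in the controls, against 76.2, 67.4, and 74.8 FPKM in the second group (-0.70 on the log2 scale, with an adjusted p of 0.031 in limma). It did not pass when any 1 library other than control replicate 3 was left out, nor without the variance trend, without the filter, or with replicate number as a block, with a negative difference and an adjusted p of 0.052 to 0.15 from limma in these fits. By contrast *Isl2*, its relative in RGCs, had a positive difference of 0.31, from 5.38, 5.78, and 6.43 to 7.15, 7.15, and 7.59 FPKM, at an adjusted p of 0.48 from limma.

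In all, 13 of the 18 factors were higher and 5 lower in the libraries labelled *Lhx4* null, and the median log2 fold change was 0.16, where 53.3% of all genes tested were higher. *Ebf3*, an RGC factor of the EBF family, *Isl2*, *Sox11*, a factor of immature neurons, *Eomes*, which marks the melanopsin RGCs and others, and *Tbr1*, a factor of certain RGC subtypes, had no overlap between the groups and were higher, 5 of 18 against 8.1% of all genes tested. Their log2 fold changes were 0.32, 0.31, 0.42, 0.27, and 0.31. Of the 14 AC genes tested, described below, 4 were also apart and higher, so such a share was not particular to RGC factors. Of the 18, 3 were higher at an unadjusted p under 0.05 in limma (4.6% of all genes tested were), *Ebf3*, *Isl2*, and *Sox11*, and none of these passed after adjustment.

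**Figure D4:**
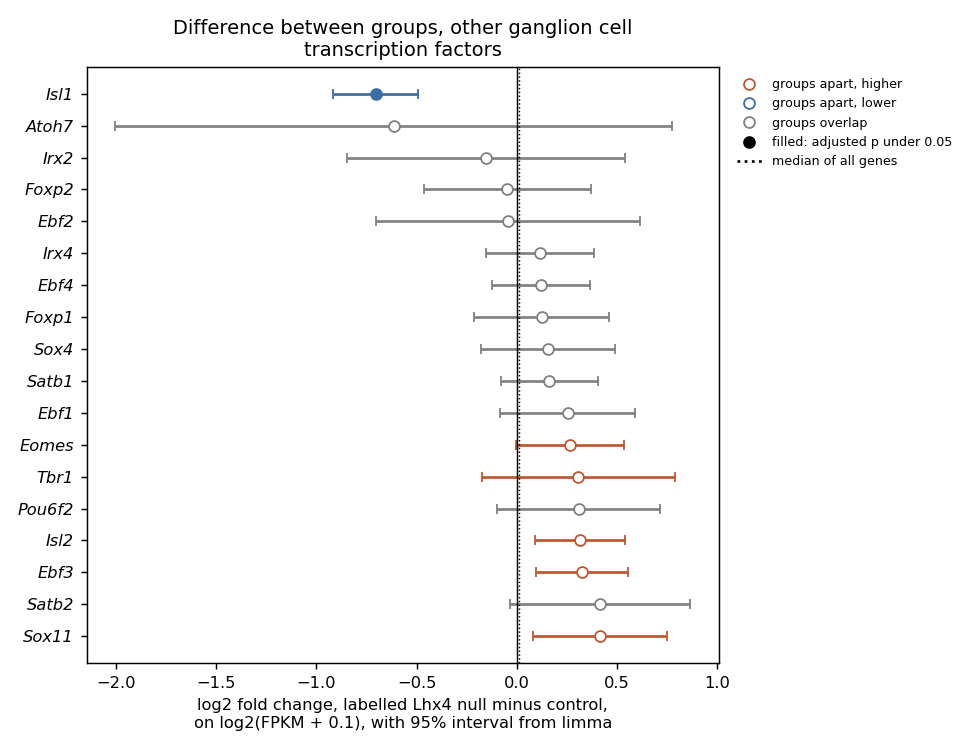
Log2 fold change of 18 other RGC transcription factors, libraries labelled *Lhx4* null minus control, on log2(FPKM + 0.1), with 95% intervals from limma. *Isl1*, filled, is the one gene with an adjusted p under 0.05, and the 5 orange genes are those whose groups are apart with higher values in the libraries labelled *Lhx4* null.

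Genes of RGC transmission, surface, and subtypes gave no call in limma, 0 of 18, with 2 of 18 at an unadjusted p under 0.05 and a median log2 fold change of -0.02. Of all genes tested, 0.224% passed and 8.15% had an unadjusted p under 0.05. *Slc17a6*, the vesicular glutamate transporter of RGCs, was at 9.18, 10.2, and 9.28 FPKM in the controls, against 10.02, 8.93, and 9.61 FPKM in the second group (-0.01 on the log2 scale). *Opn4*, which encodes melanopsin, and *Rbpms2*, the relative of *Rbpms*, had log2 fold changes of 0.14 and 0.08 with overlapping groups. The largest difference was in *Kcng4*, a potassium channel subunit gene of alpha RGCs that is also read in some BCs, at 0.649, 1.26, and 0.478 FPKM in the controls, against 3.57, 1.49, and 1.74 FPKM in those labelled *Lhx4* null. On the log2 scale this was 1.40, without overlap, with a standard error of 0.39 and an adjusted p of 0.39 in limma. *Alcam*, an adhesion molecule of RGC axons, differed by -0.25 without overlap (limma, adjusted p = 0.60), and *Jam2*, a marker of one direction-selective RGC type, differed by -0.10. Of the 18 genes, 1 was apart and higher and 1 apart and lower, against 8.1% and 6.13% of all genes tested.

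Genes of the neuronal cytoskeleton and axon, the group to which the neurofilaments belong, also gave 0 calls of 28 in limma, with 1 at an unadjusted p under 0.05. That gene, *Stmn4*, was lower, where 3.55% of all genes tested were lower at this threshold. Here 21 of 28 were higher in the libraries labelled *Lhx4* null, where 53.3% of all genes tested were, and the median log2 fold change was 0.09, against 0.01. Without *Lhx4* null replicate 1, 17 of 28 were higher. *Ina*, the fourth neurofilament subunit of such axons, was at 40.3, 46.7, and 40.1 FPKM in the controls, against 44.5, 49.3, and 40.1 FPKM in the second group (0.07 on the log2 scale). *Gap43*, a growth cone protein gene, was at 63.1, 65.6, and 65.9 FPKM against 67.7, 73.0, and 70.9 FPKM, without overlap (0.12 on the log2 scale, with an adjusted p of 0.68 in limma). *Stmn4* and *Map2*, which encode proteins that act on microtubules, had log2 fold changes of -0.18, without overlap, and -0.20. Of the 28 genes, 3 were apart and higher and 1 apart and lower, against 8.1% and 6.13% of all genes tested. The beta-tubulin genes *Tubb2a*, *Tubb2b*, and *Tubb5* had log2 fold changes of 0.13, 0.20, and 0.15.

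Genes known to respond to axon injury or stress were included because dissection cuts the RGC axons in every library. Of 11 tested, 0 passed in limma and 3 had an unadjusted p under 0.05. In the second group 3 were higher and 8 lower, where 53.3% of all genes tested were higher. For this list the median log2 fold change was -0.07. Without *Lhx4* null replicate 3, 7 of 11 were higher, and without control replicate 3, 6 of 11. *Atf3* and *Jun*, which rise in injured RGCs, had log2 fold changes of -0.34 and -0.02 with overlapping groups. The 3 genes were *Hrk*, a proapoptotic BH3-only gene (0.63), *Ecel1*, an endopeptidase gene (0.70), and *Fos*, an immediate early gene (0.35), each without overlap and higher. Over all genes tested, 4.6% were higher at an unadjusted p under 0.05 and 8.1% were apart and higher. The adjusted p-values of *Hrk*, *Ecel1*, and *Fos* from limma were 0.41, 0.51, and 0.54. Of the 11 genes, 1 was apart and lower, against 6.13% of all genes tested.

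Other cell types that read some of these genes gave the following values beside them. Of 14 AC genes tested, 12 were higher in the libraries labelled *Lhx4* null (median log2 fold change 0.14), 4 without overlap, and 0 passed in limma, with 4 at an unadjusted p under 0.05. The shares over all genes tested were 53.3% higher, 8.1% apart and higher, and 4.6% higher at an unadjusted p under 0.05. The 4 AC genes included *Gad2* (0.40), *Pax6* (0.20), and *Tfap2b* (0.21). The summed FPKM of the AC list was 578 to 641 in the controls and 629 to 685 in the others. Of 7 horizontal cell genes tested, 6 were higher and 0 passed (1 at an unadjusted p under 0.05, *Tpm3*), with sums of 109 to 134 and 126 to 144 FPKM. *Lhx1* and *Calb1*, both markers of horizontal cells, went opposite ways with overlapping groups, and *Calb1* was the 1 lower gene of the 7. *Lhx1* was at 2.30 to 3.49 FPKM in the controls and 3.16 to 4.07 FPKM in the second group (0.31 on the log2 scale), and *Calb1*, the calbindin gene, was at 4.67 to 5.36 and 3.10 to 5.03 FPKM (-0.31).

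Of 12 BC genes, 10 were lower and 5 passed in limma (*Bhlhe23*, *Grik1*, *Grm6*, *Isl1*, and *Scgn*), against 0.224% of all genes tested. That count was 2 with replicate number as a block, without the variance trend, or without *Lhx4* null replicate 3, and 3 without the filter or without any 1 of control replicates 1 and 2 and *Lhx4* null replicates 1 and 2. The sum of the BC list was 956 to 1071 FPKM in the controls and 775 to 847 FPKM in those labelled *Lhx4* null. The sums of 10 Müller glia genes were 658 to 727 and 785 to 825 FPKM, and those of 8 fibroblast and matrix genes were 4.77 to 5.91 and 11.9 to 12.7 FPKM. Such sums give most weight to the genes of highest FPKM. Of the 10 Müller glia genes, 2 were apart and higher, against 8.1% of all genes tested, and 0 passed in limma. FPKM is a share of each library, and the part of these cell types in the small positive differences of the RGC factors was not tested. Astrocyte and optic nerve genes (6 tested, 3 higher and 3 lower) had sums of 20.5 to 23.8 and 19.7 to 25.9 FPKM, which overlapped between the groups.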

How the data were processed

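RNA of the retinas of 3 control mice and 3 mice labelled *Lhx4* null at P7 was sequenced by the authors as paired-end reads. The authors mapped the reads with TopHat2 and estimated expression with Cufflinks, and the build named by the submitters' processing notes is GRCm38. Program versions, the annotation release, and the use of strand are not given in the sources used here. The deposited values are FPKM per gene, normalized by the authors for gene length and library depth, and no count model was fitted. Groups and replicate numbers came from the sample labels, and 0 columns were left unused.

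Differences were estimated by limma 3.58.1 in R 4.3.3 (functions lmFit and eBayes, variance trend on, no covariate) from log2(FPKM + 0.1). All 6 libraries entered, and 15200 genes whose mean reached 0.1 FPKM. Two-sided p-values received the Benjamini and Hochberg adjustment across these genes. On the log2(FPKM + 0.1) scale, differences of low genes come out too small. The fit and the estimate of relative depth were tested on simulated data. Where a symbol was repeated (6 symbols), the gene with the highest mean was used. Gene positions came from GENCODE vM21, in which 21603 of the 21744 identifiers were found, 21025 with the same symbol. Promoter sequences came from RefSeq on GRCm38.p6. Python 3.11.15, scipy 1.17.1, and matplotlib 3.10.9 were used for exact permutation tests and plots. The members and the gene lists were chosen with earlier results of these data known. The genes named were all members, and of the other RGC, axon, injury, AC, and horizontal cell lists the genes past the adjusted threshold and the 3 with the smallest p-values. The remaining cell type lists (BC, rod, cone, Müller glia, astrocyte, oligodendrocyte, endothelium, microglia, pigment cell, fibroblast) are given as counts or sums, and of their genes those past the adjusted threshold are named, with 3 others (*Arr3*, *Opn1mw*, *Col3a1*) added after their values were seen. Other genes of the RGC lists that are named were picked for their known function, with their values in view. Alternative settings concerned the pseudocount, the filter, the scaling, the trend, the replicate block, and the libraries, and 1 of them, without 2 libraries together, was added after the data were seen. The replicates are separate mice. The effect of the unequal depths on precision was not tested.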

Additional observations from a re-analysis of the deposited data

How the results depend on the processing

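In all 15 alternatives, 0 of the 9 RGC genes passed in limma. Counts over all genes moved: 34 genes passed as reported, 20 without the filter, 15 with the replicate block, 15 to 31 when 1 library was left out, and 9 without control replicate 2 and *Lhx4* null replicate 1. The single call among the other RGC transcription factors, *Isl1*, was lost (0 passed) without the filter, without the variance trend, with the replicate block, without both of these libraries, and in all but 1 of the fits without 1 library, which gave 0 to 1. From 4 to 8 of the 9 genes were higher in the libraries labelled *Lhx4* null when 1 library was left out, 8 without control replicate 2. In those fits *Nefl* ranged from -0.12 to 0.043, *Nefm* from -0.032 to 0.14, *Nefh* from -0.23 to 0.13, and *Thy1* from -0.087 to 0.051 on the log2 scale, each with both signs, and the other 5 genes kept their sign in all 15 alternatives. Replicate numbers did not pair the libraries: the deviations of same-numbered libraries from their group means correlated with r of -0.18, -0.05, and 0.19 across genes, and the replicate block changed no call of a member. Scaling by the median of ratios or by quantiles moved no sign. Relative depth went down to 46.7%, and the effect of depth on the values was not tested.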

Other observations

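For the mean profile of the 9 RGC genes over the libraries, each gene was scaled to unit spread, and the mean was then scaled to unit spread again. This profile was highest in control replicate 2 (1.12) and *Lhx4* null replicate 1 (0.947) and lowest in control replicate 1 (-1.40). Because of the second scaling, the size of these values does not show how closely the members varied together. Among 12317 other genes at a mean of 1 FPKM or more, the 5 nearest by root mean square distance of scaled log2 values over 6 libraries were *Arsa* (0.077), *Lpcat4* (0.12), *Brinp1* (0.14), *Nr3c2* (0.15), and *AI593442* (0.17). *Arsa*, which encodes a lysosomal sulfatase, was at 5.92, 8.38, and 6.39 FPKM in the controls, against 8.17, 7.37, and 7.01 FPKM in the second group. *Brinp1*, a gene of neurons, was at 5.92, 7.83, and 6.39 FPKM and 7.64, 7.36, and 6.96 FPKM. In both genes the groups overlapped. With 6 libraries and so many genes, some near profiles occur in any such search, and the likeness says nothing of shared control.

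Genes of other cell types that were not described above gave these counts. The shares over all genes tested were 0.224% passing in limma and 53.3% higher. At an unadjusted p under 0.05 in limma they were 4.6% higher and 3.55% lower, together 8.15%. Those without overlap were 8.1% higher and 6.13% lower. Of 10 rod genes, 9 were lower and 0 passed in limma (1 lower at an unadjusted p under 0.05). Of 9 cone genes, 7 were higher and 1 passed, *Opn1sw*, the short-wavelength opsin gene, at 0.88 on the log2 scale (limma, adjusted p = 0.031). In limma 6 of the 9 had an unadjusted p under 0.05, 4 higher and 2 lower. *Arr3*, the cone arrestin gene, and *Opn1mw*, the medium-wavelength opsin gene, were lower without overlap, at -1.27 and -1.77. The number of cone genes that passed was 0 without the filter, with quantile normalization, without the variance trend, and without any 1 library other than *Lhx4* null replicate 1, and it was 2 without that library. Of 7 oligodendrocyte genes tested, 4 were higher and 0 passed (1 higher and 1 lower at an unadjusted p under 0.05). Of 7 endothelial genes, 6 were lower and 0 passed (2 lower and 1 higher at an unadjusted p under 0.05). Of 8 microglia genes, 6 were higher and 0 passed (1 higher at an unadjusted p under 0.05). Of 8 pigment cell genes, 7 were higher and 0 passed (5 higher at an unadjusted p under 0.05). Of 10 Müller glia genes, 9 were higher and 0 passed (3 higher at an unadjusted p under 0.05). Of 6 fibroblast and matrix genes tested, 5 were higher and 2 passed, *Fbln2* and *Col1a2*, matrix protein genes with log2 fold changes of 1.24 and 1.26, while *Col3a1* was lower without overlap (-0.29). The number that passed was 1 in every fit without 1 library, without the filter, without the variance trend, with the replicate block, with either other scaling, and with a pseudocount of 0.01 FPKM, and it was 0 without control replicate 2 and *Lhx4* null replicate 1 together.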
